A study of Danio rerio with 2 samples.

Results

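The cells described here were the 58 of 576 sequenced zebrafish islet cells whose leading hormone transcript was sst1.2, which encodes a somatostatin. They were selected on their measured counts. A cell had to have at least 500 genes counted and at most 10% of its counts in mitochondrial genes, which 444 cells met, and sst1.2 had to outnumber the transcripts of 7 other hormone genes (ins, ghrl, gip, both glucagon genes, sst2 and sst1.1) and hold at least 1% of its counts. The gcgr-/- sample gave 29 sst1.2-led cells, 10.1% of its 288 cells that passed (exact binomial 95% interval 6.85 to 14.1), and the control sample gave 29, 18.6% of its 156 cells that passed (12.8 to 25.6). Because counts of these cells chose them, every comparison of them with other cells is a description with no test. The binomial intervals cover the sampling of cells in these 2 samples only.

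The cells came from gcgr-/-;Tg(gcga:GFP) larvae, in which the glucagon receptor genes gcgra and gcgrb are both disrupted, and from control Tg(gcga:GFP) larvae, at 7 days postfertilization (dpf). In both, the glucagon promoter gcga drives green fluorescent protein (GFP). Islets were picked by hand, dissociated, and sorted for GFP into 96-well plates for a modified Smart-seq2 protocol that gives 3′ end libraries. There was 1 sample per condition, so cells are not replicates of a genotype, and the comparisons come without p-values or standard errors. The number of larvae behind each sample is not given in the sources used here. In the sst1.2-led cells gcgra had 0 counts in both samples, and gcgrb had 1 count in gcgr-/- cells and 0 in control cells, so these counts could not check the genotype labels.

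The first part of each cell name was read as a plate letter and a library. Read so, the cells came from 24 libraries of 24 cells, and each library and each plate letter belonged to 1 sample alone. Genotype and library preparation therefore cannot be told apart. The 48 cell barcodes were each used in 12 libraries. The sst1.2-led cells were spread over 14 of 16 gcgr-/- libraries, with 1 to 3 cells in each, and over 8 of 8 control libraries, with 1 to 5 in each. The gcgr-/- sst1.2-led cells had 5521 to 144005 counts (median 28798) and a median of 1142 genes. The control sst1.2-led cells were shallower, with 3834 to 35167 counts (median 14403) and a median of 755 genes. The levels below are in CPM, a gene's counts scaled to a common total, from counts summed over the cells of a class in 1 sample. Intervals of sums and ratios are exact Poisson and exact conditional intervals at the 95% level. They describe counting error alone, and PCR copies of the same molecule make them narrower than they should be.

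Somatostatin is a small peptide hormone that the δ cells of the islet release onto their neighbours, where it restrains the secretion of both insulin and glucagon. Zebrafish carry several somatostatin genes, and different islet cells can use different ones. In the zebrafish RefSeq annotation used for gene names (assembly GRCz12tu), sst1.1 and sst1.2 lie on the same chromosome with 2 annotated genes between them, and sst2 lies on another chromosome. In the mouse the homeobox factor Hhex is needed for δ cells, and Pdx1 is active in β cells and in δ cells.

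The transcript that chose the cells, sst1.2, took 1.13% to 27.0% of the counts of a gcgr-/- cell (median 17.3%) and 1.15% to 29.1% of the counts of a control cell (median 8.48%). It held 10% or more in 24 gcgr-/- cells and in 14 control cells. The cells just above the limit had 1.13%, 3.43% and 4.56% in gcgr-/- and 1.15%, 2.11% and 3.90% in control. Cells in which sst1.2 led but stayed under the limit had 0.493% in gcgr-/- (1 cell) and, for the nearest 2 of 6, 0.655% and 0.501% in control. Few cells thus stood near the 1% limit. The class had another edge, which hormone led. In 23 gcgr-/- and 10 control cells that passed the filter, sst1.2 held 1% or more but another hormone led. That hormone was sst1.1 in 13 and 4 of them and sst2 in 6 and 6.

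The second hormone of these cells was sst2. It took 0 to 23.9% of counts in gcgr-/- cells (median 2.13%) and 0 to 13.0% in control cells (median 0.568%), and reached 1% in 16 gcgr-/- and 13 control cells. The 2 somatostatins went together from cell to cell, with a Spearman correlation of 0.72 over the 29 gcgr-/- cells and 0.74 over the 29 control cells. This is a description, because cells of a sample share their libraries and because both values are shares of the same total. The rule also kept only cells with more sst1.2 than sst2, which by itself favours a positive correlation. The correlation therefore cannot show by itself that the 2 genes are expressed together. Apart from sst2, another hormone reached 1% of counts in 4 gcgr-/- cells and 6 control cells, and it was ins, sst1.1 or ghrl in each. The highest such shares were 5.09% of sst1.1 in a gcgr-/- cell and 7.21% of ghrl in a control cell. Each well was to receive 1 sorted cell, and doublets were not called, so a well with a pair of cells cannot be told apart from a cell with a pair of hormones.

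**Figure D1:**
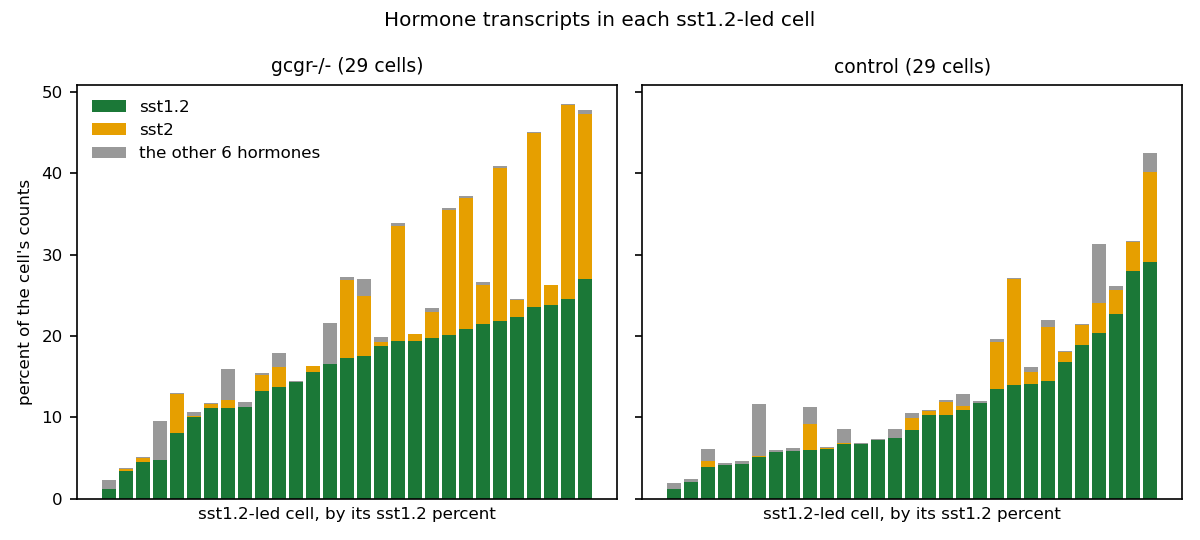
Percent of each cell's counts in sst1.2 (green), sst2 (orange) and the other 6 hormone genes (grey), 1 stacked bar per sst1.2-led cell, ordered by sst1.2. The orange segment reaches 23.9% in gcgr-/- and 13.0% in control, while the grey segment is small in most cells of both samples.

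The glucagon transcripts were scarce in these cells, although the sort was for gcga-driven GFP and GEO labels the samples as alpha cells. The highest share of gcga in any cell was 0.605% in gcgr-/- and 0.104% in control, and the highest share of gcgb was 0.655% and 0.610%. The medians of gcga were 421 CPM in gcgr-/- cells and 82.6 CPM in control cells. The cells are therefore called sst1.2-led here and not alpha cells. Markers of most tissues outside the islet were at or near 0 in most cells, but those of ducts and epithelia were not. All 5 erythroid markers were at 0 in both samples, and of 9 immune and 7 endothelial and stromal markers none had a count in gcgr-/- cells and 1 each had a count in control cells. Acinar markers summed to 47.8 CPM in gcgr-/- and 729 CPM in control, with a median of 0 over the cells of each, and liver markers to 1305 CPM in gcgr-/- and 78.3 CPM in control, again with medians of 0 and 1 gcgr-/- cell at 28353 CPM. Duct and epithelial markers summed to 919 CPM in gcgr-/- and 785 CPM in control, with medians of 294 and 128 CPM over cells, beside 747 and 923 CPM in the other hormone-led cells. Neuron and glia markers summed to 315 CPM in gcgr-/- (median 78.9) and 140 CPM in control (median 0), beside 259 and 167 CPM in the other hormone-led cells. Muscle markers summed to 29.9 CPM in gcgr-/- and 445 CPM in control. The acinar, liver and muscle sums therefore differed between the samples, and their part in the genotype comparison was not tested. Pan-endocrine markers (17 genes, among them pax6b and the secretogranins) summed to 2021 CPM in gcgr-/- and 1452 CPM in control sst1.2-led cells, beside 1885 and 1570 CPM in the other hormone-led cells of the same samples.

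Transcripts of sst1.2 were found in nearly every cell of the islet. In ins-led cells, which are not expected to make it, sst1.2 had a count in 49 of 54 gcgr-/- cells and 36 of 41 control cells, at 761 and 1360 CPM, and at median depths of 28358 and 22994 counts. A single count of sst1.2 therefore says nothing here about expression. The level in sst1.2-led cells was 171281 CPM in gcgr-/- and 111620 CPM in control. The sst1.1-led cells lay between, at 9152 CPM in gcgr-/- and 6492 CPM in control, with medians of 2604 and 2923 CPM over 52 and 36 cells. In the other direction, sst1.1 in the sst1.2-led cells was low, with a median share of 0.0181% of counts in gcgr-/- and 0.121% in control.

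Another 4 genes were named with sst1.2 as markers of these cells from earlier results of the same data, and had no part in selecting the cells. They are atp1a1b, a catalytic subunit of the sodium pump, nmba, the bombesin-family peptide neuromedin B, artnb, a ligand of the glial cell line-derived neurotrophic factor (GDNF) family related to artemin, and aqp4, a water channel. The most widely found was nmba, with a count in 27 of 29 gcgr-/- and 18 of 29 control cells. Its level was 0 to 2188 CPM (median 389) over the gcgr-/- cells and 0 to 2517 CPM (median 157) over the control cells. In ins-led cells nmba had a count in 4 of 54 gcgr-/- and 6 of 41 control cells. After thinning each cell to 5000 counts, nmba was found in 68.97% of gcgr-/- and 50.0% of control sst1.2-led cells, against 5.66% and 12.2% of ins-led cells.

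The other 3 markers were patchy. artnb had a count in 13 gcgr-/- and 11 control cells, at 488 and 544 CPM, with highest cells of 4037 and 4941 CPM and a median of 0 in both. aqp4 had a count in 14 gcgr-/- and 8 control cells, at 163 and 119 CPM, and 1 gcgr-/- cell held 58.7% of its gcgr-/- counts. atp1a1b had a count in 19 gcgr-/- cells but in only 7 control cells, at 170 and 65.9 CPM. That was 24.1% of the control cells, under the 25% a gene needed in the comparison with other hormone-led cells. atp1a1b is therefore described here and not counted in that comparison. It was compared between the samples. In ins-led cells atp1a1b had 0 counts in both samples, and artnb and aqp4 stayed under 2 CPM. The sst2-led cells carried some of the markers. nmba was at 571 CPM in 6 gcgr-/- and 1117 CPM in 6 control sst2-led cells, and atp1a1b at 221 and 82.4 CPM, in each case above the sst1.2-led level of the same sample. In control, 80% of those atp1a1b counts lay in 1 cell. artnb had 0 counts in the gcgr-/- sst2-led cells and a count in 1 of 6 control ones. aqp4 was at 334 CPM in gcgr-/- and had 0 counts in control sst2-led cells. None of the markers apart from sst1.2, which chose the cells, was thus found in every sst1.2-led cell.

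To describe what set the cells apart, their summed CPM was divided by that of all other hormone-led cells of the same sample, 232 in gcgr-/- and 96 in control. To be compared, a gene needed a count in at least 25% of the sst1.2-led cells, or of the other cells, of both samples. Its level in the higher group also had to be 50 CPM or more in both. Of the 727 genes compared, 34 were at least 2-fold higher in sst1.2-led cells in both samples (4.68%) and 39 were at least 2-fold lower in both (5.36%). The median log2 ratio over the 727 genes was -0.04 in gcgr-/- and -0.06 in control. The other cells were not the same mixture in both samples, since 106 of the 232 gcgr-/- cells and 3 of the 96 control cells were led by a glucagon gene.

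**Figure D2:**
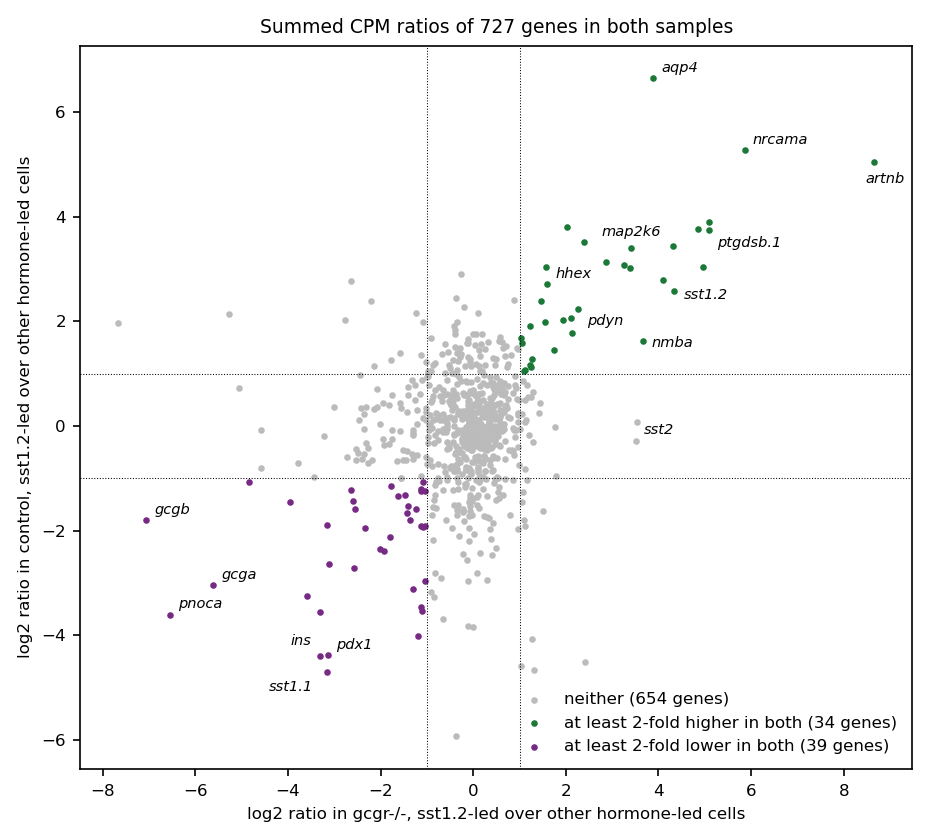
Log2 ratio of summed CPM, sst1.2-led over other hormone-led cells, in the gcgr-/- sample (x axis) and the control sample (y axis) for 727 genes, with dotted lines at 2-fold. The 34 genes at the upper right, in green, were at least 2-fold higher in both samples, and the 39 at the lower left, in purple, at least 2-fold lower.

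Several of the higher genes encode secreted products. The largest level in gcgr-/- among the 20 was that of ptgdsb.1, which encodes a prostaglandin D synthase of the lipocalin type. It was at 4122 CPM in gcgr-/- and 1003 CPM in control sst1.2-led cells, against 121 and 74.9 CPM in the other cells, a ratio of 34.1 (31.9 to 36.5) in gcgr-/- and 13.4 (11.5 to 15.7) in control. It had a count in 24 gcgr-/- cells, with a median of 1758 CPM, and in 14 control cells, of which 1 held 52.8% of the control counts. The opioid peptide precursor pdyn (prodynorphin) was at 651 CPM in gcgr-/- and 1211 CPM in control sst1.2-led cells, 4.83-fold and 4.74-fold above the other cells, with a median over cells of 507 and 1047 CPM. The ghrl- or gip-led cells carried pdyn too, as the plot of levels by class shows. Its level there was 1547 CPM in gcgr-/- and 1763 CPM in control, above that of the sst1.2-led cells. Being among the other cells, they hold the pdyn ratio down. artnb was 404-fold (218 to 846) higher in gcgr-/- and 33.1-fold (24.7 to 45.2) higher in control, and nmba 12.6-fold (11.1 to 14.4) and 3.08-fold (2.55 to 3.71) higher. The control ratio of nmba was 19.6 without plate A and 2.05 without plate B. olfm2a, which encodes a secreted olfactomedin-domain protein, had a count in 20 gcgr-/- and 18 control cells and was 17.04-fold and 6.90-fold higher.

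Genes for the cell surface formed another group. hepacam2, an immunoglobulin-family adhesion protein, was 10.6-fold (7.38 to 15.2) and 10.5-fold (5.71 to 19.9) higher, from low levels of 65.0 and 59.7 CPM. nrcama, a neuronal cell adhesion molecule of the L1 family, had the largest ratio of the 20 genes by the smaller of its values in the samples, 58.1 in gcgr-/- and 38.6 in control. That ratio leaned on few cells, since 1 gcgr-/- cell held 57.2% and 1 control cell held 73.6% of the sample's nrcama counts in sst1.2-led cells. Transporters in the group were slc26a3.2, an anion exchanger of the SLC26 family, which was 30.9-fold and 8.18-fold higher, and slc43a2a, an amino acid transporter of the LAT family, which was 4.09-fold and 14.0-fold higher.

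Signalling genes included map2k6, the kinase that activates p38. It was one of the most evenly found of the set, with a count in 26 gcgr-/- and 19 control cells, medians of 1167 and 909 CPM, and ratios of 19.8 (17.9 to 21.9) and 10.8 (9.36 to 12.5). mapk15, an atypical MAP kinase, was 4.38-fold and 3.43-fold higher. carhsp1, an RNA-binding protein regulated by calcium, had a count in 26 gcgr-/- and 20 control cells and was 9.52-fold and 8.48-fold higher. Others among the 20 were lrrc39, zgc:195023, ppfibp1a (liprin β1), hopx, si:ch211-195b15.8 and plecb (plectin). Their ratios ran between 3.84 and 28.8 in gcgr-/- and between 4.05 and 13.7 in control. In 1 control cell lay 57.6% of the control counts of ppfibp1a, and in 1 control cell 57.9% of those of hopx. Some of the 20 were also found in ghrl- or gip-led cells. There carhsp1 was at 474 CPM in gcgr-/- and 454 CPM in control, and plecb at 228 and 445 CPM. In control, lrrc39 was at 975 CPM in 2 of 10 such cells, and si:ch211-195b15.8 at 806 CPM in 7 of 10. By contrast, nmba, slc26a3.2 and ppfibp1a had 0 counts in these cells in both samples.

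Split by plate letter, the 20 genes were higher in sst1.2-led cells on both control plates, and 17 of the 20 on all 4 gcgr-/- plates. The other 3 were higher on 3 of 4 plates. The 20 genes were picked for their ratios in the sums over these same plates, so this split describes their spread and is no separate support. Split by library, where a comparison often rests on a single sst1.2-led cell, a gene was higher in 5 to 14 of 14 gcgr-/- libraries and in 5 to 8 of 8 control libraries.

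**Figure D3:**
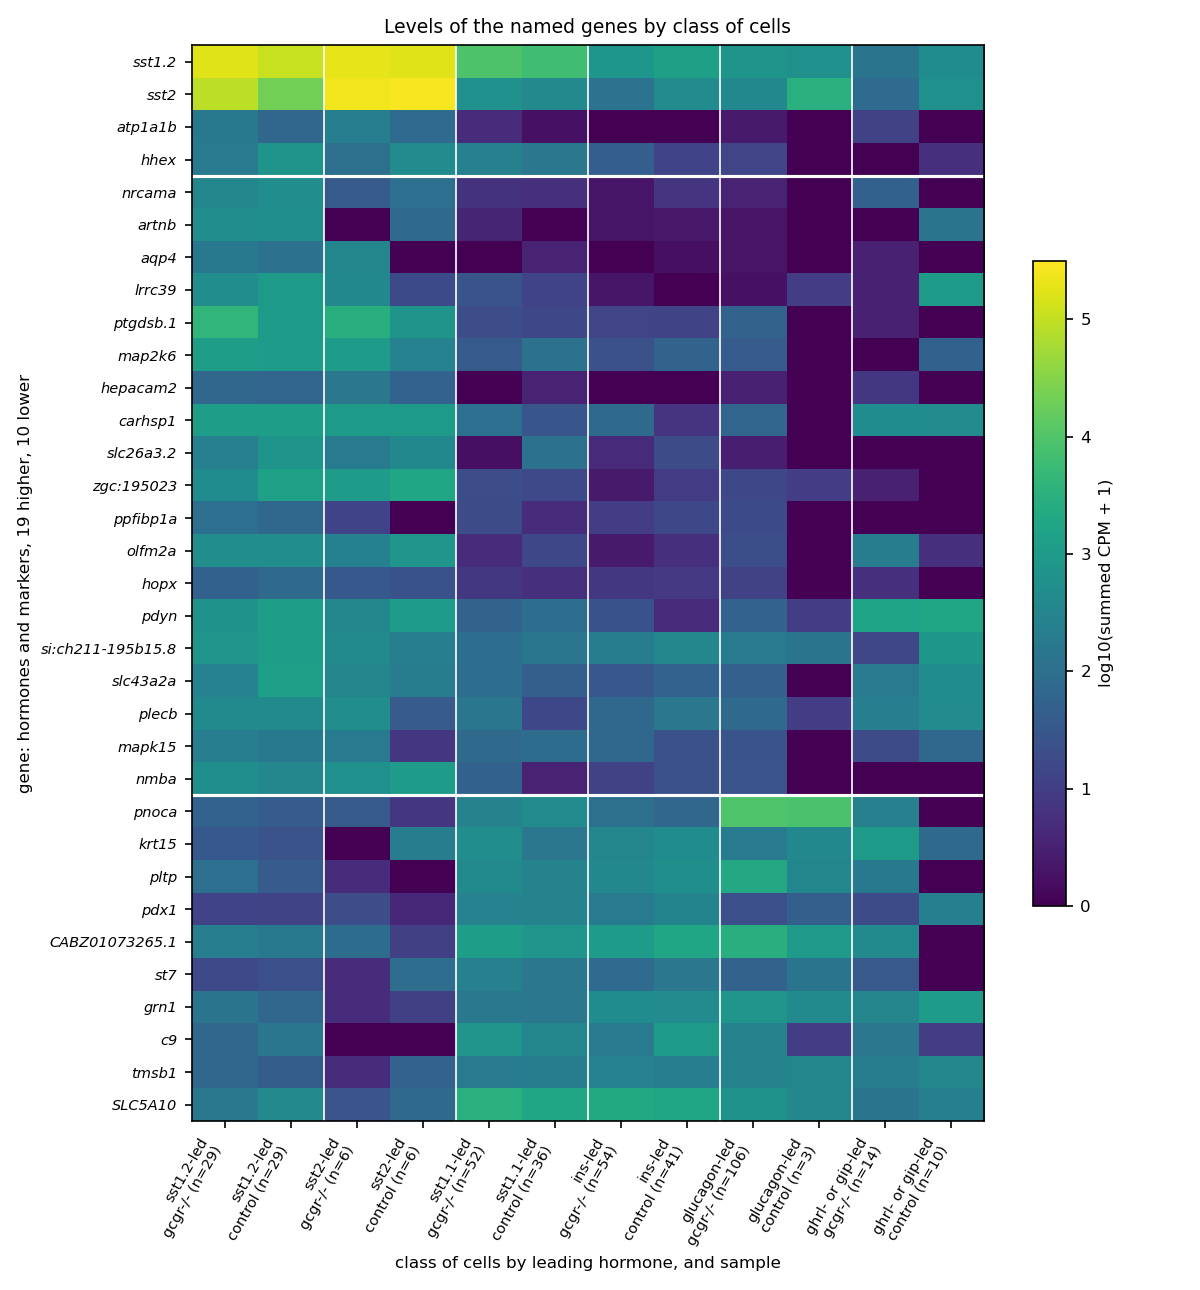
Level of each named gene as log10 of summed CPM plus 1 (color), by class of cells (columns, gcgr-/- left of control in each pair, with the number of cells). The sst2-led columns resemble the sst1.2-led ones for many of the 19 genes of the middle block. They do not for all, as with ppfibp1a in both samples and lrrc39 and mapk15 in control. The sst1.1-led, ins-led and glucagon-led columns are dark there for most genes, but not for all. In glucagon-led cells si:ch211-195b15.8 was at 190 CPM in gcgr-/- and 128 CPM in control.

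Among islet transcription factors, 8 of the 49 in the tables were compared, 1 was higher and 1 was lower. hhex had a count in 23 gcgr-/- and 24 control sst1.2-led cells, at 195 CPM (0 to 1569 over cells, median 167) and 694 CPM (0 to 3377, median 334). It was 3.01-fold (2.58 to 3.49) and 6.57-fold (5.64 to 7.65) above the other cells, and the control ratio was 4.10 without plate A. Against the sst1.1-led cells alone the gcgr-/- ratio turned to 0.796 and the control ratio was 4.52, so in gcgr-/- hhex did not set apart the 2 kinds of somatostatin cell. pdx1 did set them apart. It had a count in 5 of 29 gcgr-/- and 3 of 29 control sst1.2-led cells, at 11.96 and 12.4 CPM, against 280 and 289 CPM in sst1.1-led cells, where 38 of 52 and 29 of 36 cells had a count. Against all other cells pdx1 was 8.85-fold lower in gcgr-/- and 20.8-fold lower in control.

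The genes that were lower included products of other islet cells, whose hormones the selection kept out. pnoca, the precursor of nociceptin, was at 53.1 CPM in gcgr-/- and 39.1 CPM in control sst1.2-led cells, against 9817 and 8541 CPM in glucagon-led cells. The others were not markers of a single class. SLC5A10, named as a sodium-coupled sugar transporter, was at 159 and 383 CPM in sst1.2-led cells, against 3173 and 1706 CPM in sst1.1-led cells and 2154 and 1741 CPM in ins-led cells. pltp, a phospholipid transfer protein, was 11.95-fold lower in gcgr-/- and 9.46-fold lower in control. krt15 (keratin), st7, grn1 (a granulin), c9 (complement), tmsb1 (a thymosin β) and CABZ01073265.1 were 3.78-fold to 9.96-fold lower in gcgr-/- and 3.85-fold to 11.8-fold lower in control. Each of the 10 named lower genes was lower on all 4 gcgr-/- plates and both control plates, whose sums had also picked them.

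Read against the 4.68% and 5.36% of all genes, the other lists held few differences. Of the 4 exocytosis genes compared, cplx2 (complexin, which binds the vesicle fusion machinery) was higher, at 2.94-fold in gcgr-/- and 3.99-fold in control. That of cplx2 in gcgr-/- rested on part of the cells, being higher on 2 of 4 plates and in 5 of 14 libraries, and 0.626 over the cells the authors kept. Of 12 genes of glucose metabolism, gpia (glucose-6-phosphate isomerase) was higher, 2.05-fold and 3.19-fold. Among granule and processing genes ptprnb, which encodes a protein of secretory granules, was lower, and 1 of 17 proteasome and ubiquitin genes, psmb3, was lower. None of 20 heat shock and chaperone genes, 10 immediate-early genes, 10 endoplasmic reticulum folding genes, 11 antioxidant and iron genes, 78 cytosolic ribosomal protein genes or 11 mitochondrial genes passed 2-fold in both samples in either direction. Somatostatin receptors, ion channels, and hormone and transmitter receptors had no gene that passed the limits to be compared.

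A small class of cells shared part of the pattern without having been chosen for it. The 12 sst2-led cells, 6 in each sample, belonged to the other cells in the comparison that named the 20 genes. Their sst1.2 share was 8.06% to 27.2% in gcgr-/- and 1.40% to 21.8% in control. Of the 20 genes, the gcgr-/- sst1.2-led cells had a count in 3 to 18 (median 12), and the control sst1.2-led cells in 1 to 15 (median 11). The sst2-led cells had a count in 8 to 16 (median 13) in gcgr-/- and 2 to 15 (median 11.5) in control. The sst1.1-led, ins-led and glucagon-led cells of both samples had medians of 1 or 2. Their distance from the sst1.2-led cells follows from how the 20 genes were picked, and is no separate support. After thinning to 5000 counts the medians were 9 and 9 in sst1.2-led cells, 9 and 8 in sst2-led cells, and 1 in sst1.1-led, ins-led and glucagon-led cells of either sample. The resemblance was not complete. artnb had 0 counts in gcgr-/- and 79.1 CPM in control sst2-led cells, and aqp4 had 334 CPM in gcgr-/- and 0 counts in control sst2-led cells. ppfibp1a was at 11.6 CPM in gcgr-/- and had 0 counts in control. In control sst2-led cells lrrc39, plecb and mapk15 were also low, at 16.5, 36.2 and 6.59 CPM. Others of the 20 were not low there, such as zgc:195023 at 1799 CPM and olfm2a at 748 CPM. The line between the sst1.2-led and sst2-led classes is set by which of the pair had more counts. With the sst2-led cells left out of the other cells, 35 genes were higher, all 34 of the main comparison among them, and the ratio of sst1.2 itself moved to 75.1 in gcgr-/- and 32.6 in control, from 20.1 and 6.02. That of nmba in control moved to 30.0, from 3.08.

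**Figure D4:**
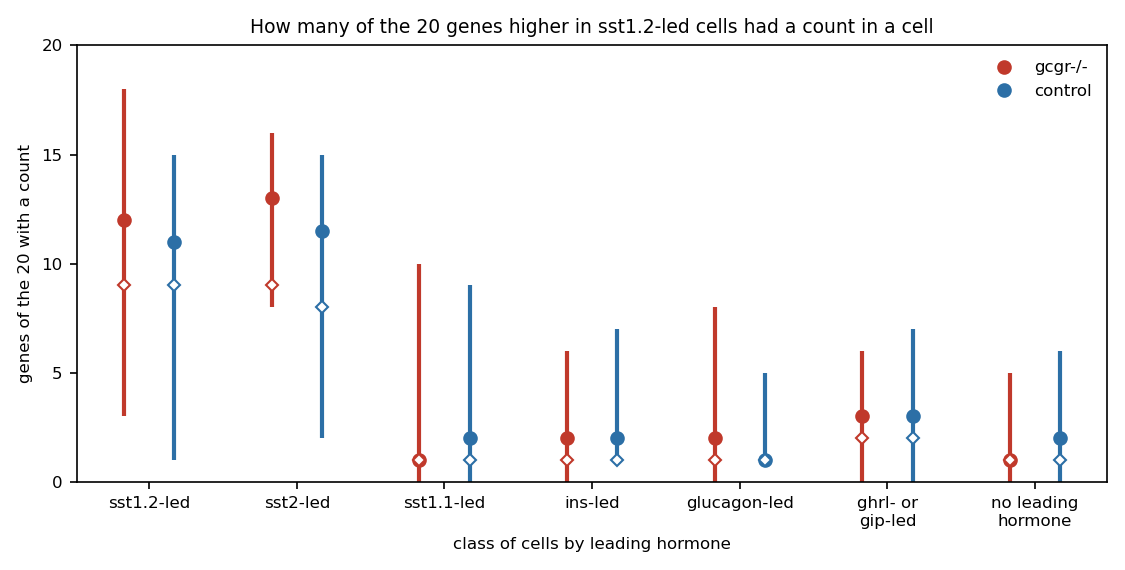
Number of the 20 genes with at least 1 count in a cell, by class of cells and sample. Filled circles are medians, bars run from the lowest to the highest cell, and open diamonds are medians after thinning to 5000 counts. The sst1.2-led and sst2-led classes have medians of 11 to 13, and the other classes 1 to 3. The 20 genes were picked as higher in sst1.2-led cells than in the other hormone-led cells. The gap between sst1.2-led cells and those classes therefore follows from the choice.

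Within the sst1.2-led cells the amount of sst2 went with other differences. The 16 gcgr-/- cells with sst2 at 1% or more had a median sst1.2 share of 20.5% and a median of 13.5 of the 20 genes, against 11.2% and 11 genes in the 13 gcgr-/- cells under 1%. In control the values were 14.5% and 13 genes in 13 cells, against 6.02% and 9.5 genes in 16 cells. Because every member had to have more sst1.2 than sst2, the difference in sst1.2 share follows in part from the selection. Depth moved with sst2 in gcgr-/- (medians of 55286 counts, against 20792) and not in control (14136, against 16282), and its part in these differences was not tested. In control, ptgdsb.1 was at 2205 CPM in cells with sst2 at 1% or more and at 171 CPM in the rest. In gcgr-/- the values were 4489 and 3383 CPM. Other genes of the 20 went the other way in both samples. lrrc39 was at 324 CPM in gcgr-/- cells with sst2 at 1% or more and 807 CPM in the rest, and at 478 and 1328 CPM in control. map2k6 was at 992 and 1739 CPM in gcgr-/- and at 805 and 1171 CPM in control.

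The authors had set aside part of these cells as potential β and δ cells, 18 of 29 in gcgr-/- and 11 of 29 in control. The sst2 share differed between the cells they removed and kept. In gcgr-/- it was 0.00208% to 23.9% in removed cells (median 6.096%) and 0 to 0.771% in kept cells (median 0.249%). In control it was 0.168% to 13.0% in removed cells (median 3.52%) and 0 to 3.13% in kept cells (median 0.0354%). Of the removed cells 16 of 18 and 10 of 11 had sst2 at 1% or more, and of the kept cells 0 of 11 and 3 of 18. Other values differed too. The median sst1.2 share was 19.9% in removed and 11.3% in kept gcgr-/- cells, and 14.5% and 6.43% in control. Median counts were 59664.5 and 17993 in gcgr-/-, and 19159 and 12002.5 in control. Ratios over the cells the authors kept carry these differences.

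The design also compares the sst1.2-led cells of gcgr-/- larvae with those of control larvae. With 1 sample each and separate libraries, ratios describe these 2 samples and not the genotype, and they carry counting intervals only. A gene was called if the summed CPM and the mean of the per-cell CPM were both at least 2-fold apart in the same direction, with no cell holding over 50% of the counts of the higher sample. A gene entered this comparison with a count in at least 25% of cells and 50 CPM or more in the higher sample alone. Genes with 0 counts in control, such as bach1b, could therefore enter. Of 939 genes compared, 260 were higher in gcgr-/- (27.7%) and 103 were lower (11.0%). The higher genes made up 71.6% of these calls, and 64.0% of the calls after thinning to 5000 counts. The gcgr-/- cells were deeper, and the part of depth in these shares was not tested further. The median log2 ratio over the 939 genes was 0.46, so a gene with a ratio of 1 lay below the middle of the genes. Leaving the hormone genes out of the totals added 0.23 to that median. Levels per plate did not overlap between the samples for 244 of the 939 genes (26.0%), 117 of the 260 and 72 of the 103. Plates of 1 sample are not replicates of a genotype.

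Neither sst1.2 nor the 4 markers named with it were called. sst1.2 was at 171281 CPM in gcgr-/- and 111620 CPM in control, a ratio of 1.53 (1.52 to 1.55), which was 2.03 over the cells the authors kept. Its plates ran from 144559 to 213254 CPM in gcgr-/- and from 88697 to 126844 CPM in control. nmba had a ratio of 1.58 (1.33 to 1.88), aqp4 1.36 (1.02 to 1.85) and artnb 0.90 (0.78 to 1.04). The direction of aqp4 and artnb was not stable. The aqp4 ratio was 0.82 by the mean of cells, 0.66 without plate D and 0.136 over the cells the authors kept, where the levels were 13.2 CPM in 11 gcgr-/- cells and 97.5 CPM in 18 control cells. The artnb ratio was 1.48 without plate A. The ratio of atp1a1b was 2.57 (1.77 to 3.85) by summed CPM and 1.56 by the mean of cells. With the hormones left out of the totals, the ratio of sst1.2 was 1.80. Plates overlapped between the samples for artnb, aqp4 and atp1a1b. Of the 20 genes higher in sst1.2-led cells, 3 were called between the samples, ptgdsb.1 as higher and the other 2 as lower. Of all genes compared, 27.7% were called higher and 11.0% lower, so the share called lower is near the background and the share called higher is under it. zgc:195023 was at 465 CPM in gcgr-/- and 1405 CPM in control, 3.02-fold lower. The amino acid transporter slc43a2a was at 276 and 1267 CPM, 4.58-fold lower.

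sst2 was higher in gcgr-/- sst1.2-led cells. It was at 89947 CPM in gcgr-/- and 21333 CPM in control, a ratio of 4.22 (4.13 to 4.30) by summed CPM and 2.87 by the mean of cells. The selection kept only cells with more sst1.2 than sst2, so the rule itself limited sst2 in these cells. In the sst2-led cells, on the other side of that line, sst2 was not higher in gcgr-/-. It was at 243887 CPM in gcgr-/- and 280966 CPM in control there. In the sst1.1-led and ins-led cells the ratio was 1.57 and 0.27. Over the cells the authors kept it was 1.24, under 2-fold, and without control plate A it was 8.99. ptgdsb.1 was also higher, 4.11-fold (3.75 to 4.52), with a ratio of 1.26 in sst1.1-led and 1.02 in ins-led cells, whose levels were under 20 CPM. The difference was not particular to the sst1.2-led cells, since in sst2-led cells ptgdsb.1 was at 2787 CPM in gcgr-/- and 705 CPM in control. Over the cells the authors kept the ratio of ptgdsb.1 was 26.7. hhex was 3.56-fold lower by summed CPM and 2.10-fold lower by the mean of cells. It was lower in sst2-led cells too, at 109 CPM in gcgr-/- and 458 CPM in control. Over the sst1.2-led cells the authors kept, the ratio of hhex turned to 1.06, and without control plate A it was 0.49. gcga was 9.31-fold (7.49 to 11.7) higher in gcgr-/-, with 28 of 29 gcgr-/- and 18 of 29 control cells having a count. In the gcgr-/- sample 106 cells were led by a glucagon gene, against 3 in control, and gcga was higher in ins-led cells too, 3.19-fold, and its origin in the sst1.2-led cells was not tested. pax6b, a factor shared by islet endocrine cells, was 2.29-fold (2.01 to 2.63) higher, with a count in 29 of 29 gcgr-/- and 21 of 29 control cells.

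Of 15 genes for iron storage and the handling of oxidants, 11 were higher in gcgr-/- and none was lower, beside 27.7% and 11.0% of all genes. Their median log2 ratio was 2.98, against 0.46 over all genes. The ferritin heavy chain-like gene fthl27 was the most abundant. It was at 245 to 82879 CPM over gcgr-/- cells (median 24669) and 0 to 19606 CPM over control cells (median 2291), and its summed ratio was 7.21 (6.84 to 7.59). Its plates ran from 21217 to 24926 CPM in gcgr-/- and from 1940 to 4924 CPM in control. fthl31 was 15.5-fold (11.7 to 21.03) higher, with a count in 28 gcgr-/- and 13 control cells. sqstm1, the autophagy receptor p62, was 15.3-fold (11.6 to 20.6) higher, with a count in 28 and 9 cells. keap1a, which encodes the sensor that holds Nrf2 in check, had 150 counts in 14 gcgr-/- cells and 0 counts in control. Its ratio was 18.1 against a floor of 3 counts per sample, which is not a lower bound. bach1b, a heme-regulated repressor, had 505 counts in 16 gcgr-/- cells and 0 in control, a ratio of 61.1 against the same floor. gclc, mt2, gpx4a, sod1 and fthl29 were the others, 3.02-fold to 15.2-fold higher. The ferritin-like genes are near copies of each other, so reads could be split between them.

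fthl28 led the whole ranking, but unevenly. It had 1821 counts in 23 gcgr-/- cells, of which 1 cell held 49.9%, and 2 counts in 2 control cells, a ratio of 330 (91.3 to 2730). In ins-led cells its ratio was 1.52 and in sst1.1-led cells 0.75. In ghrl- or gip-led cells fthl28 was at 3047 CPM in gcgr-/-, in 7 of 14 cells with 62.9% of the counts in 1, and at 4.45 CPM in control. In sst2-led cells it was at 769 CPM in gcgr-/-, with 94.9% of the counts in 1 cell, and had 0 counts in control. The others were not all like it. fthl27 was 9.14-fold higher in ins-led and 13.1-fold higher in sst1.1-led cells, and sqstm1 5.96-fold and 16.5-fold. keap1a had a ratio of 1.11 in ins-led cells and sod1 0.85.

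The inducible heat shock genes were lower in gcgr-/- sst1.2-led cells. hsp70l was at 135 to 105461 CPM over gcgr-/- cells (median 2731) and 12020 to 139832 CPM over control cells (median 50600), 7.40-fold lower in sum. hsp70.1 was at 0 to 23095 CPM (median 111) and 389 to 62386 CPM (median 21808), 30.8-fold lower. hsp70.2, hsp70.3 and the co-chaperone dnajb1b were 12.1-fold, 5.605-fold and 6.11-fold lower. The hsp70 genes are similar in sequence, and reads could be split between them. In ins-led cells hsp70.1 was 6.78-fold lower and hsp70l 2.75-fold lower, and in sst1.1-led cells 15.7-fold and 5.36-fold lower. The same list held 5 genes that were higher, hspd1, hspe1, hsf2, cct2 and cct3, so 5 of its 20 were higher and 5 lower, beside 27.7% and 11.0% of all genes. The share that was higher is near that background. hspd1 and hspe1, the mitochondrial chaperonin pair, were 25.8-fold (9.99 to 95.5) and 3.89-fold (3.33 to 4.56) higher.

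Immediate-early genes, which are switched on fast by stimulation or handling, also went both ways, 4 higher and 6 lower of 13, beside 27.7% and 11.0% of all genes. The share that was higher is again near the background. fosab was 7.799-fold lower, with a count in 19 gcgr-/- and 28 control cells and with 63.4% of its gcgr-/- counts in 1 cell, and jun 2.78-fold lower. atf3 was 9.72-fold (8.04 to 11.9) higher, with a count in 28 and 12 cells. klf6a had 202 counts in gcgr-/- and 0 in control, a ratio of 24.4 against the floor of 3 counts. Of 13 proteasome and ubiquitin genes compared, 2 were higher and 5 lower, beside the same shares of all genes. Their median log2 ratio was 0.45, against 0.46 over all genes, so the list as a whole was not lower. The lower ones were ubb (12.4-fold), UBB (9.55-fold), and psmb1, psmb4 and psmb6 of the proteasome core (2.08-fold to 3.48-fold). The higher ones were psmd6 and psmd12. psmb6 turned to a ratio of 1.04 without control plate B.

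**Figure D5:**
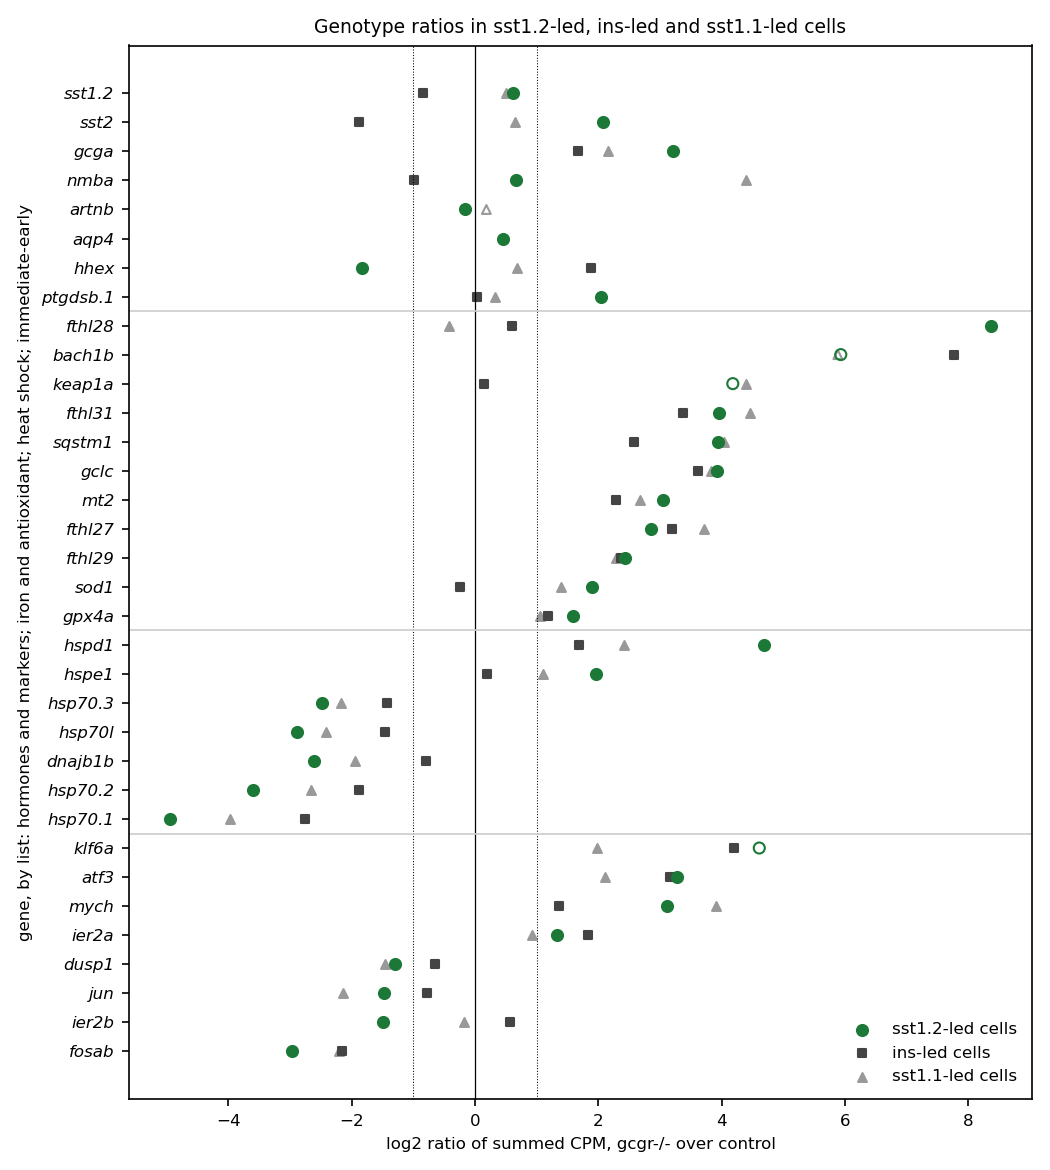
Log2 ratio of summed CPM, gcgr-/- over control, in sst1.2-led (green circles), ins-led (dark squares) and sst1.1-led cells (grey triangles), for genes in 4 groups. Open symbols are ratios with 1 sample at the floor of 3 counts, and no symbol is drawn for aqp4 in ins-led and sst1.1-led cells and for artnb in ins-led cells. The 11 iron and antioxidant genes drawn are those called higher, of 15 compared, and the rest of the 15 are not drawn. These 11 therefore lie right of the dotted line at 2-fold in sst1.2-led cells by choice. The 5 heat shock genes called lower lie left of it for the same reason.

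The comparisons in the 3 classes share libraries and so are not independent of each other. Outside these lists, the 10 genes with the largest differences included eps8l1b, lima1a (both regulators of actin), vps26bl (retromer), chmp1b (membrane remodelling), lonrf1l, calr (calreticulin), ccng2 (cyclin G2) and cep350 on the higher side, each with 1 to 3 counts in control. By the mean of cells their ratios were between 34.7 and 184. For calr the ratio was 49.9 (13.7 to 414) here, against 1.23 in ins-led and 0.85 in sst1.1-led cells. In sst2-led cells calr was at 509 CPM in gcgr-/-, with 89.3% of the counts in 1 cell, and 3.29 CPM in control. In ghrl- or gip-led cells the order was the other way, 171 CPM in gcgr-/- and 450 CPM in control. Others repeated in both classes. lima1a was at 287 CPM in gcgr-/- sst2-led cells, with 85.1% of the counts in 1 cell, and at 737 CPM in gcgr-/- ghrl- or gip-led cells. It had 0 counts in control cells of both classes. lonrf1l was at 167 CPM against 0 counts, and at 282 against 26.7 CPM. cep350 went the other way in both, 175 against 616 and 88.0 against 147 CPM. So did ccng2 in ghrl- or gip-led cells, 67.7 against 75.7 CPM. On the lower side, ptgs2a (the inducible cyclooxygenase) had 1 count in 1 gcgr-/- cell and 242 counts in 11 control cells, at 0.747 and 498 CPM, and its control plates were at 196 and 699 CPM. In ins-led cells ptgs2a was at 0.513 and 2.10 CPM. Other classes had the difference too. In ghrl- or gip-led cells ptgs2a had 0 counts in gcgr-/- and 5093 CPM in control, with a count in 10 of 10 control cells. In sst2-led cells it was at 27.2 CPM in gcgr-/- and 250 CPM in control, and in glucagon-led cells at 0.243 CPM in gcgr-/- and 1750 CPM in control, there in 1 of 3 control cells. tra2b and ddx23 (both of splicing) were 39.3-fold and 27.1-fold lower, and the linker histone gene h1f0 21.6-fold lower, with a count in 11 gcgr-/- and 21 control cells. gabra2a (a GABA-A receptor subunit), disp2, slc35g2b, gpt2l and glula (glutamine synthetase) were 10.3-fold to 19.9-fold lower. For tra2b and h1f0 the order was not the same in the other classes, with ratios of 7.22 and 0.30 in ins-led cells and 0.68 and 1.83 in sst1.1-led cells. In sst2-led cells ddx23 was at 179 CPM in gcgr-/- and 23.1 CPM in control, and gabra2a at 124 and 9.88 CPM. In gcgr-/-, 1 cell held 87.0% of these ddx23 counts and 1 cell held 68.75% of these gabra2a counts. In ghrl- or gip-led cells slc35g2b was at 153 and 8.90 CPM, with 79.4% of the gcgr-/- counts in 1 cell. In both of these classes disp2 and glula were lower in gcgr-/-, as in sst1.2-led cells.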

How the data were processed

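The authors trimmed the reads with Trim Galore, aligned them to GRCz11 with STAR and deposited raw counts per gene and cell made with featureCounts over coding sequence only, so reads that fell wholly outside coding sequence, which 3′ end libraries can give, were not counted. The primers carried molecular identifiers, but collapsing of reads by them is not stated, so the deposited counts were read as counts of reads. The tables held 24900 genes, 17 of them spelled differently in the 2 tables and joined by position. No column was left out. Cells were filtered, classed and summed, and ratios, exact intervals at the 95% level and thinning to 5000 counts (seed 7) were computed with python 3.11.15, numpy 2.4.6, pandas 2.3.3 and scipy 1.17.1, and drawn with matplotlib 3.10.9. The scripts were tested on simulated data. A count of 0 was given a floor of 3 counts.

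The text names the hormones and given markers, the 20 genes called higher and the 10 called lower in sst1.2-led cells by the smaller log2 ratio of the 2 samples, the 10 called in each direction between genotypes, ranked by the smaller of the summed and per-cell ratios, and called members of the gene lists. Of the 20, 1 gene is not reported here, so 19 are named. The cells and the gene lists were chosen with earlier results of these data known. The alternatives were other cell filters and hormone limits, other scalings, thinning, other comparison cells, the cells the authors kept, and each plate left out. Whether doublets were treated is not given in the sources used here.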

Additional observations from a re-analysis of the deposited data

Results flagged for a closer look

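Cells under the quality filter were not part of the comparisons. Of the 96 gcgr-/- cells that failed, 10 were led by sst1.2 at 1% or more of counts, with a median of 443 counts and 131 genes. Of the 36 control cells that failed, 4 were led by sst1.2, with a median of 1002 counts and 235 genes. They drew notice as a signal in cells that no comparison used, above the share that a count of 0 allows. Because sst1.2 also had counts in nearly all ins-led cells, its share in such shallow cells may include background, which was not tested.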

How the results depend on the processing

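The number of genes higher in sst1.2-led cells in both samples was 34, and it was 21 after thinning to 5000 counts (436 genes compared, 19 of the 34 among them), 53 with at least 750 genes per cell (27 shared), 53 over the cells the authors kept (19 shared) and 52 against ins-led cells alone (30 shared). The number lower was 39, and 18 after thinning (16 shared). The number higher in gcgr-/- was 260, and 169 over the cells the authors kept (81 shared). The gcgr-/- cells numbered 11 among those the authors kept and 19 when sst1.2 had to hold 2 times the counts of the next hormone. The control cells numbered 14 at a limit of 10% of counts, 16 with at least 750 genes and 18 among those the authors kept.

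Alternative ratios of single genes were computed for 39 genes between cell classes and 107 between genotypes, and not for every gene called. Among the ratios of these genes called 2-fold, the direction turned in 5, and the cause was not tested. The ratio of hhex in gcgr-/- was 0.796 against sst1.1-led cells. Over the cells the authors kept, krt18a.1 in control was 1.115, cplx2 in gcgr-/- was 0.626 and hhex between genotypes was 1.061. Without plate B, psmb6 between genotypes was 1.036. Ratios that were not called turned more often. Of those printed, aqp4 between genotypes ran from 0.136 to 2.32 and artnb from 0.595 to 1.48.

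Leaving out each plate in turn gave 31 to 40 genes higher and 33 to 50 lower in sst1.2-led cells, and 194 to 337 higher and 96 to 102 lower in gcgr-/-. In 2 alternatives chosen after seeing the data, sst2-led cells were left out of the other cells (35 higher, 40 lower) or sst1.2-led cells with another hormone at 1% were left out (44 higher, 55 lower, and 232 and 126 between genotypes). Of the alternative ratios of single genes, 569 of 1386 between genotypes and 526 of 1247 between cell classes moved beyond their counting interval, so their size depends on the cells and the scaling. No paired analysis was possible because each genotype had 1 sample. Genes under 50 CPM, or with counts in too few cells, were not compared. None in the lists of receptors and ion channels passed both limits. The part of depth in this, which was lower in the control cells, was not tested.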
